A study of Mus musculus with 8 samples.

Results

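Crush of the sciatic nerve was followed in the myeloid cells of mice by comparing 15 weeks with 1 week after the injury, one that cuts axons but leaves a path along which they can regrow. The comparison used the 3320 cells of crushed nerves among the 6550 tagged cells of the series, in 5 of its 13 hashtag samples. At 1 week 331 cells came from female sample F and 605 from male sample M. At 15 weeks 488 came from female F1, 341 from female F2 and 1555 from male M1. A cell was kept when it had 500 or more genes, under 10% of its unique molecular identifiers (UMIs) from mitochondrial genes and exactly 1 hashtag above its threshold. A hashtag is a barcoded antibody that marks the sample a cell came from. The thresholds were 19, 30 and 20 UMIs for F1, F2 and M1 at 15 weeks and higher for F and M at 1 week, whose hashtags were read more deeply. The sham male tagged in the 1-week crush library was left out.

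All samples came from C57BL/6JolaHsd mice with no transgene, and the cells were sorted as CD45+ and CD11b+. The crush was made with forceps on the left sciatic nerve. A second injury, partial sciatic nerve ligation (PSNL), in which part of the nerve is tied off, served for comparison, with samples F and M at 1 week (1406 cells) and F1, F2, M1 and M2 at 15 weeks (1654 cells). The 1-week libraries belong to batch 1 and the 15-week libraries to batch 2, each injury has 1 library at each time, and the file headers name Cell Ranger 6.0.0 at 1 week and 7.0.0 at 15 weeks. Time, batch, library, mice and software version therefore cannot be told apart. According to the study's text Ly6G+ neutrophils were gated out at the early time point, and no such gate is stated for the late one. The labels give no age and do not state whether a hashtag marks 1 mouse or a pool. P-values therefore measure the spread between hashtag samples.

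After a nerve is crushed, blood monocytes enter it, become macrophages and clear myelin and axon debris together with Schwann cells, and the infiltrate recedes as axons regrow. Resident macrophages of the nerve, which carry scavenger receptors such as Mrc1, Cd163 and Lyve1, are present before and after the injury. Monocytes are known by Ly6c2 and Plac8, dendritic cells by Flt3 and Ccr7, and both can be drawn into inflamed tissue together with type I interferon signalling and MHC class II antigen display.

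Total UMIs per sample were 2224236 and 3538686 at 1 week and between 2350012 and 15363322 at 15 weeks, and median UMIs per cell were 5223 and 5558 at 1 week and between 6393 and 9344 at 15 weeks. The sample sums held whole counts, and values are given as CPM, counts brought to a common library total that was scaled by the trimmed mean of M values. A nuclear transcript that overlaps ribosomal RNA, Gm42418, took 7.24% and 12.97% of UMIs at 1 week and 1.32% to 1.85% at 15 weeks. Barcodes with 2 or more positive hashtags made up 26.9% of the 1-week and 1.76% of the 15-week crush library, and no barcode was shared by both. The expression of the sex-linked genes Xist and Ddx3y matched the labelled sex in all 5 samples. Cells counted as C1q-positive, with at least 3 UMIs of the complement genes C1qa, C1qb and C1qc that made up at least 0.1% of the cell's UMIs, were 38.1% and 38.2% of cells at 1 week and 80.3%, 92.1% and 93.6% at 15 weeks. In sums over all cells, fewer cells of a type and less RNA per cell cannot be told apart. Pan-macrophage markers such as Adgre1, Csf1r and Cd68 were present in every sample, and the summed level of the 10 fixed markers was 5005 and 7475 CPM at 1 week and 8749, 11196 and 13921 CPM at 15 weeks.

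Of 10952 genes tested by edgeR's quasi-likelihood test with Benjamini-Hochberg adjustment, 1452 (13.3%) were lower at 15 weeks than at 1 week after crush and 2208 (20.2%) were higher at adjusted p under 0.05. In 1445 of the 1452 lower genes the 3 samples at 15 weeks all lay below both samples at 1 week. The calls and this separation come from the same samples, so it is no separate result. Its share over all genes tested is not given here. Without 1-week M 235 genes were lower and 887 higher, without 1-week F 642 and 1238, and without 15-week F2 676 were lower. The direction of the difference went with intron length. A newer counting version can include reads within introns, and whether either version did so here is not given in the sources used here. Intronic bases per gene were therefore taken from the annotation (GENCODE M21, GRCm38). Genes with at most 3000 intronic bases, named short-intron genes below, numbered 1489. Among them 327 (22.0%) were lower and 83 (5.57%) were higher. In all of these calls the groups did not overlap, which is likewise no separate result.

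Genes without intronic bases had a median log2 difference, 15 weeks minus 1 week, of -0.39, and those with over 100000 intronic bases a median of 1.51. The medians between were -0.39, -0.37, -0.35, -0.34, -0.14 and 0.37 in order of length, so they were nearly level up to 10000 bases and then climbed. In genes with over 30000 intronic bases 204 of 4104 were lower and 1701 higher. The same step was present after PSNL, where the first and last medians were -0.50 and 1.70. When samples were scaled on the short-intron genes alone, log2 differences moved up by a median of 0.39. This scaling centres the short-intron genes by construction, so the split of calls among them and the nesting of its lower calls within those of the first scaling follow from it and are no separate result. Under that scaling 482 genes were lower and 3272 higher, so the share of calls that were lower went from 39.7% to 12.8%. Among short-intron genes 105 were then lower and 140 higher, and the lower share of calls went from 79.8% to 42.9%. All 482 and all 105 were among the genes lower under the first scaling. The values below use the first scaling, and the result under the second is stated for many, not all, of the genes named as lower. Where it is not stated, no call under the second scaling is implied.

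**Figure D1:**
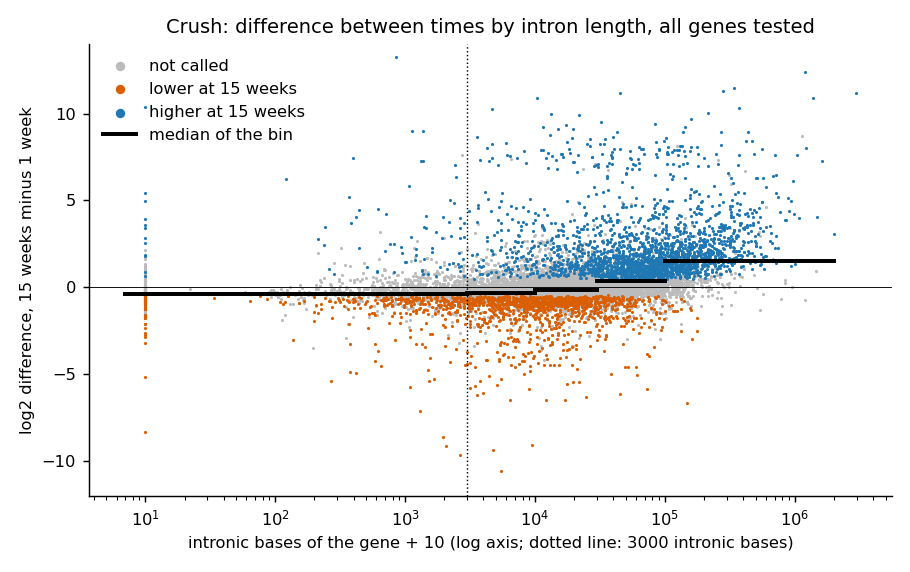
Each point is 1 of the 10952 genes tested, with intronic bases plus 10 on a log axis and the log2 difference, 15 weeks minus 1 week after crush, on the vertical axis. Orange points were called lower, blue points higher and grey points neither, and black bars give the median of each length bin, from -0.39 without introns to 1.51 above 100000 bases.

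Gene lists are described by the number of members called, to be read beside the 13.3% lower and 20.2% higher over all genes. Of 9 monocyte markers 6 were lower and none higher, with a median log2 difference of -3.56 against -0.003 over all genes tested. Of 13 dendritic cell markers 10 were lower (median -2.43), and of 16 interferon-stimulated genes 13 were lower (median -3.42). Of 7 tested neutrophil genes 3 were lower (median -3.18). On the other side, 9 of 18 resident nerve macrophage markers were higher and none lower (median 1.78), while 41.4% of all genes with over 30000 intronic bases were higher. Of its 6 short-intron members 2 were higher, against the 5.57% of all short-intron genes. Complement genes had 5 of 11 higher and none lower (median 0.99). Of 14 S100 and antimicrobial genes 5 were lower and 1 higher (median -1.34), of 6 nuclear RNA and RNA quality genes 3 were lower (median -0.63), of 10 macrophage markers 1 was lower and 4 were higher (median 0.99), and of 10 microglia-like markers 1 was lower and 2 were higher (median 0.67). Lists of lysosome and lipid-associated genes held few calls, 1 lower and 2 higher of 22 and 1 lower of 15. Scaled on short-intron genes, 1 nuclear RNA and RNA quality gene and 4 S100 and antimicrobial genes were lower. No macrophage marker, lysosome gene or lipid-associated gene was lower then. The alternative activation and actin lists, described below, then held 2 lower genes each.

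**Figure D2:**
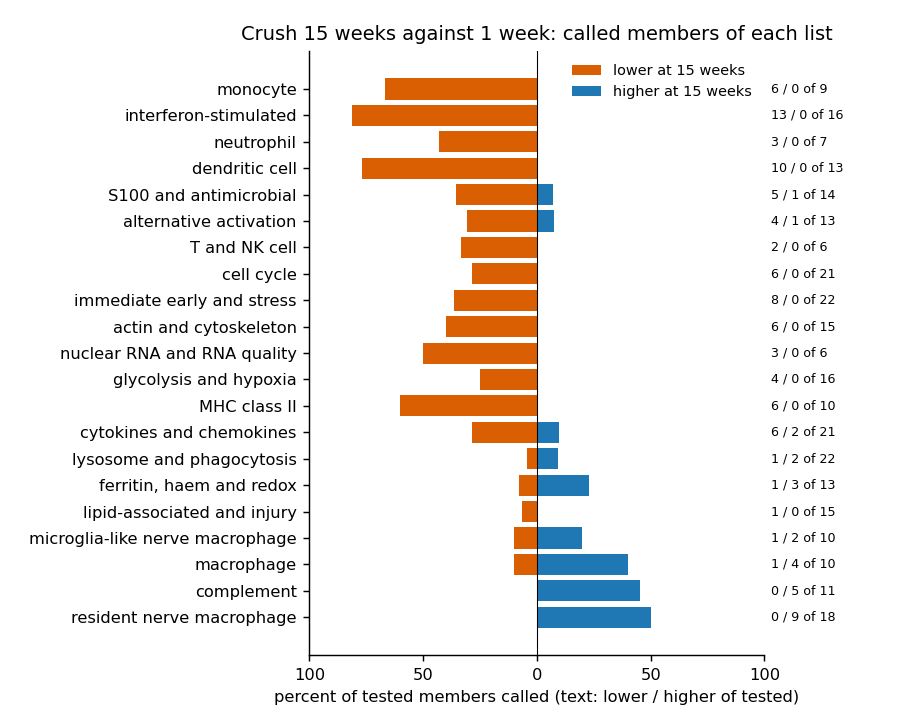
Bars give the percent of tested members of each gene list called lower (orange, to the left) or higher (blue, to the right) at 15 weeks after crush, for lists with at least 5 tested members, ordered by median log2 difference. Monocyte, interferon-stimulated, neutrophil and dendritic cell genes lie at one end, with 6 of 9, 13 of 16, 3 of 7 and 10 of 13 members lower, and resident nerve macrophage markers at the other, with 9 of 18 higher.

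Monocyte markers had the lowest median of the lists with at least 5 tested members. Summed on plain library totals, the 9 markers stood at 1975 and 2475 CPM in F and M at 1 week. At 15 weeks they stood at 1430, 737 and 220 CPM, and in the 1-week shams at 1538 (male) and 1001 CPM (female). Plac8, a small cysteine-rich protein of circulating monocytes, stood at 145 and 750.0 CPM in F and M at 1 week and 1.96, 7.38 and 6.06 CPM in F1, F2 and M1 at 15 weeks. Both 1-week samples were far above all 15-week samples, with M higher than F, and Plac8 fell by 6.46 ± 0.83 on the log2 scale (edgeR adjusted p = 0.0035). Ly6c2, which encodes the Ly6C antigen of inflammatory monocytes and is a short-intron gene, stood at 45.7 and 305 CPM in F and M at 1 week and 3.05, 4.66 and 3.03 CPM in F1, F2 and M1 at 15 weeks. It fell by 5.70 ± 0.81 on the log2 scale (edgeR adjusted p = 0.00488), again with M above F and no overlap. Reads of the Ly6 family can be split between near-identical members, so single Ly6 values are less certain. Vcan, a matrix proteoglycan made by monocytes, and Hp, haptoglobin, fell by 3.80 and 3.56 on the log2 scale (edgeR adjusted p = 0.00673 and 0.00747). Ms4a4c was also lower (log2 difference -3.52). Ccr2, the receptor that brings monocytes out of bone marrow, had a log2 difference of -0.95 that did not pass the test, as did Chil3 (-2.30) and Fn1 (-1.15). Without 1-week M the edgeR adjusted p was over 0.05 for Vcan (0.127) and Hp (0.0735). The list had 3 of 9 members lower without 1-week M.

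The share of cells with a UMI was taken after thinning each cell to 2000 UMIs, which left out 47 and 108 cells at 1 week and 12, 11 and 40 at 15 weeks. Among C1q-negative cells Plac8 was found in 17.6% and 36.6% at 1 week and 1.05%, 9.09% and 5.62% at 15 weeks, in the order F, M, F1, F2 and M1. In C1q-positive cells, which as macrophages should carry little of it, the shares were 1.75% and 6.67% at 1 week and 0%, 0% and 0.0701% at 15 weeks. The C1q-negative cells numbered 170 and 287 at 1 week and 95, 22 and 89 at 15 weeks after thinning, with median depths before thinning of 5725 to 14415 UMIs. Those of the C1q-positive cells lay between 6127 and 9442.5 UMIs. Plac8 was thus less frequent at 15 weeks within the C1q-negative class as well as in the whole sample. Ly6c2 was found in 6.47% and 20.2% at 1 week and 3.16%, 4.55% and 3.37% at 15 weeks of C1q-negative cells. A share of 0 allows a share of cells with a UMI of up to 0.787% and 0.974% among the 381 and 308 thinned C1q-positive cells of F1 and F2, and of up to 13.6% among the 22 C1q-negative cells of F2. These limits cover counting error in detection only and set no limit on cells that express the gene. With 3 against 2 samples an exact one-sided permutation test cannot go below p = 0.1, so shares are given with no test.

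**Figure D3:**
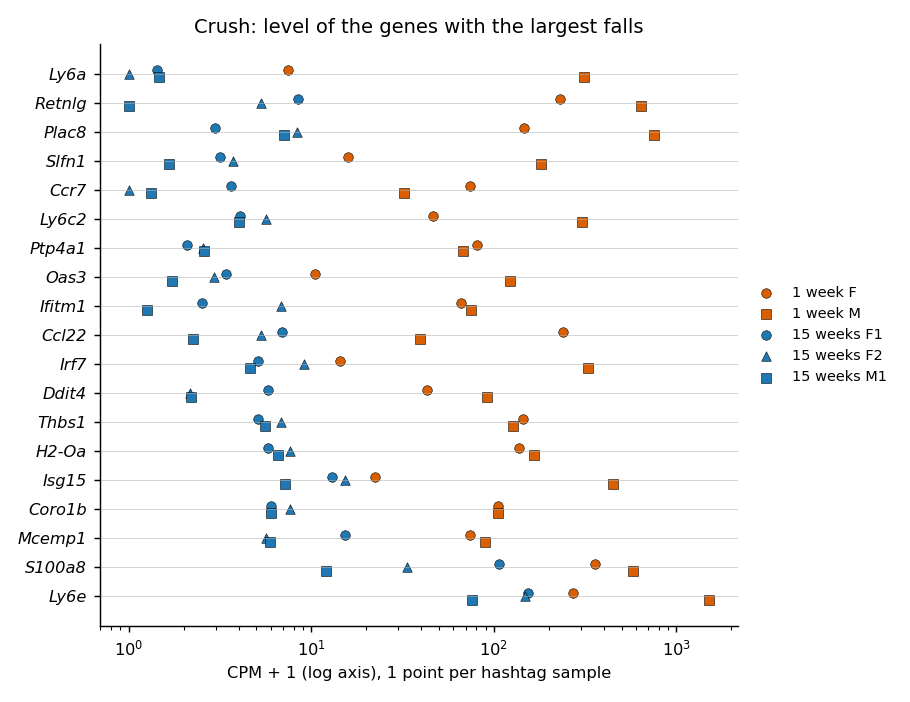
Level of each gene among the largest falls or the largest short-intron falls of genes averaging at least 50 CPM at 1 week, as CPM plus 1 on a log axis, with 1 point per hashtag sample (orange at 1 week, blue at 15 weeks). In every gene both 1-week points lie to the right of the 3 points at 15 weeks, since only genes without overlap were chosen. The distance between 1-week F and M is widest for Ly6a, Irf7 and Isg15.

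Dendritic cell markers of several subsets were lower at 15 weeks than at 1 week. On plain library totals the 13 markers summed to 1447 and 1703 CPM in F and M at 1 week. At 15 weeks they summed to 799, 678 and 557 CPM. The 1-week shams stood at 1769 CPM (male, 106 cells) and 1005 CPM (female, 64 cells), so the male lay above both crush samples. The part of the injury in the fall was not tested. Flt3, the receptor for the growth factor of dendritic cells, stood at 104 and 107 CPM in F and M at 1 week and 21.1, 15.9 and 14.6 CPM in F1, F2 and M1 at 15 weeks. The samples within each time were close together and the groups did not overlap, and Flt3 fell by 2.62 ± 0.20 on the log2 scale (edgeR adjusted p = 0.000844). Ccr7, which guides migrating dendritic cells to lymph nodes, stood at 73.0 and 31.1 CPM in F and M at 1 week and 2.62, 0 and 0.329 CPM in F1, F2 and M1 at 15 weeks and fell by 5.85 ± 0.87 on the log2 scale (edgeR adjusted p = 0.00556). Ccl22, a chemokine of mature dendritic cells, stood at 238 and 38.4 CPM in F and M at 1 week and 5.89, 4.28 and 1.25 CPM in F1, F2 and M1 at 15 weeks. F was the higher of the 1-week samples in both genes, and Ccl22 fell by 5.38 ± 0.95 on the log2 scale (edgeR adjusted p = 0.00931). Xcr1 and Clec9a, of cross-presenting dendritic cells, had log2 differences of -4.12 and -2.96, and Itgae (CD103) of -4.55, each called lower. Cd209a and Clec10a, lectins of the other conventional subset, were lower by 1.99 and 1.28 on the log2 scale. Irf8 (-0.40), Zbtb46 (-0.37) and Clec4b1 (0.14) did not pass the test. Scaled on short-intron genes 6 of 13 were lower, with Cd209a and Clec10a no longer among them, and without 1-week M 5 of 13 were. The edgeR adjusted p was over 0.05 without 1-week M for Clec9a (0.0528), Cd209a (0.201) and Clec10a (0.15), without 1-week F for Cd209a (0.061) and Clec10a (0.066), without 15-week F1 for Clec10a (0.0562), and without 15-week F2 for Cd209a (0.122). Flt3 was found in 20.6% and 25.8% at 1 week and 10.5%, 18.2% and 29.2% at 15 weeks of C1q-negative cells, a range that overlapped between times, and in 4.39% and 5.24% at 1 week and 1.31%, 2.92% and 0.210% at 15 weeks of C1q-positive cells.

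Markers of other cells that a CD11b+ gate could hold were examined as well. Of 7 tested neutrophil genes 3 were lower and none higher, namely Retnlg, S100a8 and Cxcr2. Under the stricter cell filter (at least 1000 genes, under 5% mitochondrial) Retnlg (edgeR adjusted p = 0.0822) and Cxcr2 were not called. S100a8 turned direction under that filter. Neutrophil genes summed to 1109.5 and 2131 CPM at 1 week and 381, 175 and 125 CPM at 15 weeks, with Ngp at 0 in all samples. On plain library totals the sums were 1005 and 1960 CPM in F and M at 1 week. The 1-week shams stood at 3536 (male) and 488 CPM (female), the male above and the female below both crush samples. Retnlg, a resistin-like protein of neutrophils and a short-intron gene, stood at 229 and 634 CPM in F and M at 1 week and 7.41, 4.28 and 0 CPM in F1, F2 and M1 at 15 weeks and fell by 7.10 ± 1.31 on the log2 scale (edgeR adjusted p = 0.0108). S100a8, a calgranulin subunit, stood at 355 and 575 CPM in F and M at 1 week and 106, 32.6 and 11.1 CPM in F1, F2 and M1 at 15 weeks and fell by 3.23 ± 0.85 on the log2 scale (edgeR adjusted p = 0.0314). These genes were higher at the time at which the Ly6G gate was stated. Eosinophil markers summed to 28.8 and 48.0 CPM at 1 week and 1.53, 0 and 1.51 CPM at 15 weeks, with Epx at 0 throughout and Ccr3, an eotaxin receptor, called lower (log2 difference -6.49 ± 0.69, edgeR adjusted p = 0.00194). Kit, of mast cells, stood at 33.8 and 44.6 against 0.436, 0 and 0.922 CPM and fell by 5.86 ± 0.48 on the log2 scale (edgeR adjusted p = 0.00101). Of 6 tested T and NK cell genes Il2ra and Nkg7 were lower (log2 difference -6.13 and -1.78). The B cell genes Ighm and Cd79b had log2 differences of 0.08 and 0.61 that did not pass the test. Of 6 Schwann cell and 6 fibroblast markers 2 and 1 were tested, and 1 of each was higher. Pmp22, of myelin, stood at 54.1 and 19.1 against 135, 134 and 246 CPM and Dcn, of fibroblasts, at 0.496 and 1.84 against 11.1, 6.61 and 41.1 CPM. Both were called higher (edgeR adjusted p = 0.0206 and 0.0378). In C1q-positive cells alone neither was called (edgeR adjusted p = 0.0621 and 0.105). Pecam1, of endothelium, was not called (log2 difference -1.41 ± 0.46, edgeR adjusted p = 0.0595). Calls were lost, by the edgeR adjusted p in parentheses, without 1-week M for Retnlg (0.0525), S100a8 (0.131), Pmp22 (0.0867) and Dcn (0.143), without 1-week F for S100a8 (0.0732), Nkg7 (0.053) and Dcn (0.159), and without 15-week F2 for Retnlg (0.0529) and S100a8 (0.109). The part of these cells in the other results was not tested.

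Of the 16 interferon-stimulated genes tested 13 were called lower, but their level was unequal between the 1-week samples, and in 6 of the 13 the groups overlapped. The summed level of the 16 tested genes was 1522 and 8033 CPM at 1 week and 963, 989.5 and 497 CPM at 15 weeks, so 1-week M lay far above the other 4 samples and 1-week F was nearest to those at 15 weeks. Isg15, a ubiquitin-like protein and a short-intron gene, stood at 21.3 and 449.9 CPM in F and M at 1 week and 11.99, 14.4 and 6.19 CPM in F1, F2 and M1 at 15 weeks. It fell by 4.53 ± 1.11 on the log2 scale (edgeR adjusted p = 0.0257) with no overlap between groups. Irf7, the transcription factor that amplifies the response, stood at 13.4 and 329 CPM in F and M at 1 week and 4.14, 8.16 and 3.62 CPM in F1, F2 and M1 at 15 weeks and fell by 5.16 ± 1.18 on the log2 scale (edgeR adjusted p = 0.0209). Oas3, a sensor of double-stranded RNA, stood at 9.43 and 121 CPM in F and M at 1 week and 2.40, 1.94 and 0.724 CPM in F1, F2 and M1 at 15 weeks and fell by 5.54 ± 1.10 on the log2 scale (edgeR adjusted p = 0.0136). In all of these genes M at 1 week was several times F, while F was still above the 15-week samples. The 6 genes with overlap were Ifit1, Ifit2, Ifit3, Rsad2, Oasl2 and Usp18, in each of which 1-week F lay below at least 1 sample at 15 weeks and the call rested on 1-week M. Ifit2, for example, stood at 0.496 and 229 CPM in F and M at 1 week and 1.74, 7.38 and 1.45 CPM in F1, F2 and M1 at 15 weeks, with 1-week F below all 3 samples at 15 weeks (log2 difference -5.41 ± 1.64, edgeR adjusted p = 0.0473).

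Left without 1-week M, the edgeR test gave an adjusted p over 0.05 for Isg15 (0.222), Irf7 (0.152) and Oas3 (0.104), without 15-week F1 for Isg15 (0.0637) and Irf7 (0.0582), and without 15-week F2 for Isg15 (0.0826), Irf7 (0.0676) and Oas3 (0.0539). Over the list, 1 of 16 members was lower without 1-week M, with a median log2 difference of -0.51, and 15 of 16 were lower without 1-week F. Without 15-week F2 0 of 15 passed the edgeR test (12 did at an unadjusted p under 0.05) and the median was -3.47, and without 15-week F1 3 of 15 did. Without 15-week M1 6 of 16 did. DESeq2 called 14 of 16 lower on all 5 samples. Scaled on short-intron genes 6 of 16 were lower, Isg15 and Irf7 included. In C1q-positive cells alone 12 of 15 were lower (median -3.45). Irf7 was found in 1.75% and 49.0% at 1 week and 0.525%, 0.325% and 0.912% at 15 weeks of C1q-positive cells and in 3.53% and 34.8% at 1 week and 1.05%, 0% and 2.25% at 15 weeks of C1q-negative cells, so the cells of 1-week M stood apart in both classes. On plain library totals the list summed to 1379 CPM in 1-week F and 7386 CPM in 1-week M. It was 1877 CPM in the sham male of the same library and 3817 and 4337 CPM in PSNL F and M at 1 week.

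**Figure D4:**
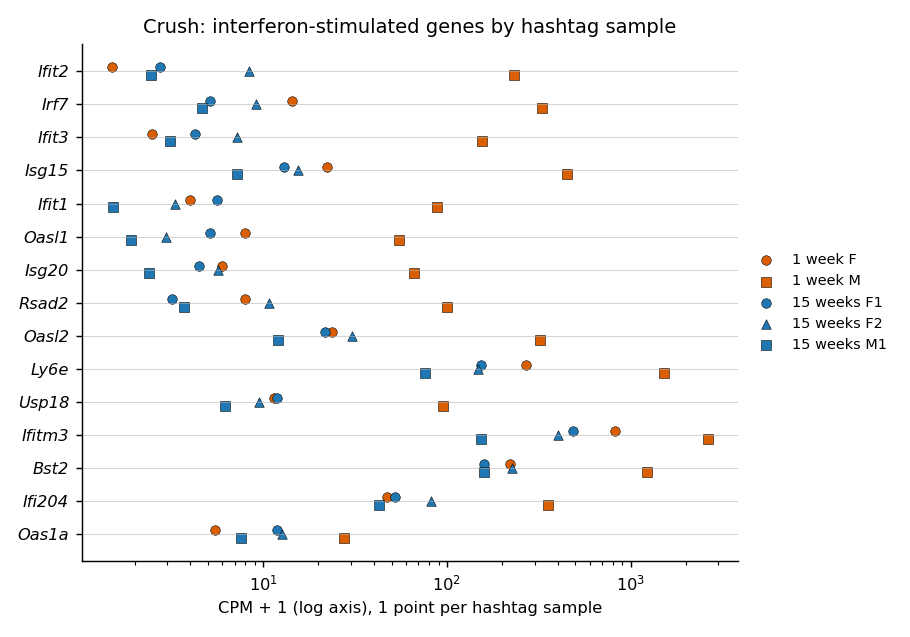
Level of 15 of the 16 tested interferon-stimulated genes in the 5 crush samples, as CPM plus 1 on a log axis, ordered from the largest fall at the top. Squares of 1-week M (orange) lie furthest to the right for all 15 genes, and circles of 1-week F lie among or close to the blue points of 15 weeks.

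The promoters of Isg15 and Ifit3, an interferon-induced protein with tetratricopeptide repeats, are shown because both genes were called lower and both windows hold several copies of the core of the interferon-stimulated response element. The windows run from 250 bases before to 50 bases after the start site, from RefSeq on GRCm38.p6, at chr4:156200769-156201068 on the minus strand and chr19:34583279-34583578 on the plus strand. Capitals mark GAAANNGAA or its reverse complement, and overlapping copies in Isg15 form 1 run.
Isg15: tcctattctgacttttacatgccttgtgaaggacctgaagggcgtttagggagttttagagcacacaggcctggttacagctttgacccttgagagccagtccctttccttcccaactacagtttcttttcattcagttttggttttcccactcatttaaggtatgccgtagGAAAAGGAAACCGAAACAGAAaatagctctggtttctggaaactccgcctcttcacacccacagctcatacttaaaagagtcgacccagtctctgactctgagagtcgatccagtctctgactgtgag
Ifit3: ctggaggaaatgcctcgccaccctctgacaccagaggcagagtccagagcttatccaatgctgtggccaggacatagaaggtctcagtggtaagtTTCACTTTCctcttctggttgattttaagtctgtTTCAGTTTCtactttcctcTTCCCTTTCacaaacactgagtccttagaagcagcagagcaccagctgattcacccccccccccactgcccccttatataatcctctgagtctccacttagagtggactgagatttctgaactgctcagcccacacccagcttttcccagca
The 3 copies in Isg15 begin 78, 72 and 66 bases before the start site, and those in Ifit3 lie on the other strand, 155, 121 and 102 bases before it. GAAANNGAA was searched on both strands and was present in 7 of the 12 interferon-stimulated genes with a window and in 8.56% of 32851 windows of that length. A match is a description of letters, not a measurement of binding. Ifit3 stood at 1.49 and 155 CPM in F and M at 1 week and 3.27, 6.22 and 2.11 CPM in F1, F2 and M1 at 15 weeks, with 1-week F below all samples at 15 weeks (log2 difference -4.57 ± 1.37, edgeR adjusted p = 0.0456). Without 1-week M the edgeR adjusted p was over 0.05 for Ifit3 (0.443), without 15-week F1 for Ifit3 (0.105), without 15-week F2 for Ifit3 (0.11), and without 15-week M1 for Ifit3 (0.0787). Scaled on short-intron genes Ifit3 was not called (edgeR adjusted p = 0.0579). Ifit3 has near-identical copies in the genome and its counts are less certain.

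Of 10 MHC class II genes 6 were lower and none higher, with differences that ranged widely. On plain library totals the 10 genes summed to 28992 and 34016 CPM in F and M at 1 week. At 15 weeks they summed to 26005, 31346 and 26090 CPM, and in the 1-week shams to 30521 (male) and 26372 CPM (female). H2-Oa, the alpha chain of the modulator DO, which restrains peptide loading and is made by B cells and some dendritic cells, stood at 136 and 165 CPM in F and M at 1 week and 4.80, 6.61 and 5.59 CPM in F1, F2 and M1 at 15 weeks. The 2 groups were each tight and did not overlap, and this short-intron gene fell by 4.75 ± 0.20 on the log2 scale (edgeR adjusted p = 0.000394). H2-Ob, its partner chain, stood at 61.1 and 72.9 CPM in F and M at 1 week and 14.2, 15.9 and 8.36 CPM in F1, F2 and M1 at 15 weeks and fell by 2.44 ± 0.30 on the log2 scale (edgeR adjusted p = 0.00297). H2-DMb2, of the peptide exchange factor DM, stood at 134 and 125 CPM in F and M at 1 week and 32.3, 16.7 and 6.12 CPM in F1, F2 and M1 at 15 weeks and fell by 2.86 ± 0.61 on the log2 scale (edgeR adjusted p = 0.0168). Its paralogue H2-DMb1, with which reads can be shared, had a log2 difference of -0.24 that did not pass the test. Ciita, the master regulator of the class II genes, stood at 282 and 309 CPM in F and M at 1 week and 119, 139.5 and 132 CPM in F1, F2 and M1 at 15 weeks and fell by 1.18 ± 0.15 on the log2 scale (edgeR adjusted p = 0.0035). Of the abundant chains H2-Ab1 and Cd74 fell by 0.54 and 0.38 on the log2 scale. H2-Aa (-0.19), H2-Eb1 (-0.40) and H2-DMa, the partner of the DM beta chains (-0.51), did not pass the test. In all 6 of 10 were lower with a median of -0.52. Scaled on short-intron genes 4 were, H2-Oa, H2-Ob, H2-DMb2 and Ciita, and the median was -0.12. The edgeR adjusted p was over 0.05 without 1-week M for H2-DMb2 (0.0733), H2-Ab1 (0.164) and Cd74 (0.175), without 1-week F for H2-DMb2 (0.0642), H2-Ab1 (0.0684) and Cd74 (0.0792), without 15-week F1 for H2-Ab1 (0.103) and Cd74 (0.151), without 15-week F2 for H2-DMb2 (0.0673) and Cd74 (0.0783), and without 15-week M1 for H2-Ab1 (0.0866) and Cd74 (0.165).

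In C1q-positive cells 2 of 10 class II genes, H2-Oa and H2-DMb2, were lower and the median was 0.05. Among C1q-negative cells H2-Oa was found in 24.7% and 35.2% at 1 week and 2.11%, 0% and 14.6% at 15 weeks, and among C1q-positive cells in 1.75% and 4.29% at 1 week and 0%, 0.325% and 0.210% at 15 weeks. The level in C1q-positive cells was therefore low at both times, and within C1q-negative cells all 3 samples at 15 weeks lay below both at 1 week.

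The promoter windows of H2-Oa and of H2-Aa, the class II alpha chain, are shown as a gene that fell and one that did not pass the test. They lie at chr17:34092129-34092428 on the plus strand and chr17:34287774-34288073 on the minus strand of GRCm38.p6 (RefSeq). Capitals mark GATTGG, an inverted CCAAT box and the core of the Y box of class II promoters.
H2-Oa: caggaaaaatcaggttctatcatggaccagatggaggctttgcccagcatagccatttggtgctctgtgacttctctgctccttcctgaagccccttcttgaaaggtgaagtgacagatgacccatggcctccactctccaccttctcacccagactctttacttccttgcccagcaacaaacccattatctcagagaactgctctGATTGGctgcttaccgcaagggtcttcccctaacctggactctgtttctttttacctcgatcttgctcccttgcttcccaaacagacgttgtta
H2-Aa: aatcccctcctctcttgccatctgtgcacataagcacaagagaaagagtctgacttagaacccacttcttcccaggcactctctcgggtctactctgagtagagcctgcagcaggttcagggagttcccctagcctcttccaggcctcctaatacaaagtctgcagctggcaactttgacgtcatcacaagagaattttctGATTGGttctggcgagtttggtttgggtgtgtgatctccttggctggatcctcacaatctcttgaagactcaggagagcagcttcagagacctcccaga
The motif begins 44 bases before the start site in H2-Oa and 49 bases before it in H2-Aa. GATTGG, searched on both strands, was present in all 7 class II genes with a window and in 16.1% of 32851 windows. The longer CTGATTGG, which contains it, was present in 3 of 7 and in 4.10% of windows. The string TGANNCAA was present in 2 of 7 and in 13.3% of windows. Other boxes of class II promoters were not searched, so their presence or absence is not given. Both windows carry the same letters at a like distance.

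Since reads within introns add little to short-intron genes, the largest falls among them are given beside those of other genes. Among called genes that averaged at least 50 CPM in the higher group and did not overlap between groups, 8 of the 15 largest falls were in short-intron genes. Over all genes, 1489 of the 10952 tested and 327 of the 1452 lower were short-intron genes. The 8 short-intron genes were Ly6a, Retnlg, Ly6c2, Ifitm1, Irf7, Ddit4, H2-Oa and Isg15. Irf7 counts among them since annotated transcripts cover its introns. All 15, and all 12 of the largest short-intron falls, were also called lower when scaled on short-intron genes. Without each sample in turn 9 of the 15 and 6 of the 12 kept their call throughout. Ly6a, the stem cell antigen Sca-1, which interferon also induces, stood at 6.45 and 309 CPM in F and M at 1 week and 0.436, 0 and 0.461 CPM in F1, F2 and M1 at 15 weeks. It fell by 8.58 ± 1.68 on the log2 scale (edgeR adjusted p = 0.0131), with 1-week F far nearer to the 15-week samples than to 1-week M. Slfn1, a Schlafen gene with a similar inequality, stood at 14.9 and 181 CPM in F and M at 1 week and 2.18, 2.72 and 0.658 CPM in F1, F2 and M1 at 15 weeks and fell by 6.10 ± 1.14 on the log2 scale (edgeR adjusted p = 0.0113). Ifitm1, a membrane protein that limits virus entry, stood at 65.0 and 74.4 CPM in F and M at 1 week and 1.53, 5.83 and 0.263 CPM in F1, F2 and M1 at 15 weeks and fell by 5.39 ± 0.90 on the log2 scale (edgeR adjusted p = 0.00779). Ddit4, a stress-induced inhibitor of mTORC1, stood at 42.2 and 91.0 CPM in F and M at 1 week and 4.80, 1.17 and 1.18 CPM in F1, F2 and M1 at 15 weeks and fell by 4.89 ± 0.64 on the log2 scale (edgeR adjusted p = 0.00368). Mcemp1, a membrane protein of mast cells and monocytes, stood at 73.5 and 88.6 CPM in F and M at 1 week and 14.4, 4.66 and 4.94 CPM in F1, F2 and M1 at 15 weeks and fell by 3.35 ± 0.48 on the log2 scale (edgeR adjusted p = 0.00495). Ly6e, an interferon-induced antigen, stood at 269 and 1508 CPM in F and M at 1 week and 152, 147 and 75.3 CPM in F1, F2 and M1 at 15 weeks and fell by 2.84 ± 0.69 on the log2 scale (edgeR adjusted p = 0.0249). The groups did not overlap in any of these genes, which was a condition for naming them. In each gene 1-week M was the higher of the 1-week samples. Calls were lost, by the edgeR adjusted p in parentheses, without 1-week M for Ly6a (0.0848), Slfn1 (0.0675) and Ly6e (0.14), without 15-week F1 for Ly6e (0.0526), and without 15-week F2 for Ly6a (0.0547) and Ly6e (0.0798).

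A pair of these falls lay in genes whose exons share bases with another gene on the same strand, for which the assignment of a read depends on the gene list, and the lists held 31053 genes at 1 week and 32285 at 15 weeks. Ptp4a1, a phosphatase, stood at 79.9 and 66.4 CPM in F and M at 1 week and 1.09, 1.55 and 1.58 CPM in F1, F2 and M1 at 15 weeks and fell by 5.64 ± 0.23 on the log2 scale (edgeR adjusted p = 0.000394). Coro1b, an actin-binding coronin, stood at 104 and 104 CPM in F and M at 1 week and 5.01, 6.61 and 5.00 CPM in F1, F2 and M1 at 15 weeks and fell by 4.27 ± 0.19 on the log2 scale (edgeR adjusted p = 0.000394). After PSNL the levels were 196 and 149.7 CPM at 1 week and 0.377, 0.967, 1.08 and 1.26 CPM at 15 weeks for Ptp4a1 and 114 and 126 CPM at 1 week and 2.26, 3.39, 4.98 and 4.72 CPM at 15 weeks for Coro1b (log2 difference -7.45 and -4.92), so both were also lower at 15 weeks after PSNL in every sample. Of the 1452 lower genes 166 shared exonic bases, and of the 327 lower short-intron genes 50 did. Over all 10952 genes tested 978 did.

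Of the 8 largest rises among short-intron genes under the same conditions 6 shared exonic bases with another gene in this way, namely Rnasek, Tnfsf13, Fam89b, Tomm6, Rpl13a and Grcc10, and all 8 kept their call without each sample in turn. Over all short-intron genes called higher, 23 of 83 shared exonic bases. Rnasek, a ribonuclease, had 0 counts at 1 week and 5497 at 15 weeks, at least 432-fold higher when 3 counts over the 1-week group are taken as the limit. Its levels at 15 weeks were 197, 188 and 270.3 CPM, and after PSNL it was likewise at 0 at 1 week and between 167 and 216 CPM at 15 weeks. Tnfsf13, the cytokine APRIL, stood at 0.496 and 0.307 CPM in F and M at 1 week and 51.0, 45.5 and 89.7 CPM in F1, F2 and M1 at 15 weeks (edgeR adjusted p = 0.00111). Rpl13a, a ribosomal protein with many processed copies in the genome, stood at 154 and 157 CPM in F and M at 1 week and 1093, 1109 and 1238 CPM in F1, F2 and M1 at 15 weeks and rose by 2.88 ± 0.17 on the log2 scale (edgeR adjusted p = 0.000609). The other 2 shared no exonic bases. Atp6v0c, the proton channel subunit of the lysosomal ATPase, stood at 6.95 and 7.99 CPM in F and M at 1 week and 591, 469 and 791 CPM in F1, F2 and M1 at 15 weeks and rose by 6.35 ± 0.35 on the log2 scale (edgeR adjusted p = 0.000609). Mir142hg, the host transcript of a microRNA of blood cells, stood at 25.3 and 19.4 CPM in F and M at 1 week and 272, 273 and 180.4 CPM in F1, F2 and M1 at 15 weeks and rose by 3.44 ± 0.29 on the log2 scale (edgeR adjusted p = 0.00105). After PSNL Atp6v0c stood at 24.5 and 24.3 CPM at 1 week and 479, 376, 499.6 and 725 CPM at 15 weeks, and Mir142hg at 22.1 and 16.0 CPM at 1 week and 252, 312, 294 and 239.7 CPM at 15 weeks.

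Among cytokines, chemokines and their enzymes 6 of 21 tested were lower and 2 higher (median -0.52). Ptgs2, the inducible cyclooxygenase that makes prostaglandins, stood at 93.8 and 48.6 CPM in F and M at 1 week and 13.1, 11.3 and 20.01 CPM in F1, F2 and M1 at 15 weeks and fell by 2.21 ± 0.36 on the log2 scale (edgeR adjusted p = 0.00724). Il6 stood at 3.97 and 12.3 against 0.436, 0 and 0.197 CPM in the same order and fell by 5.08 ± 0.81 on the log2 scale (edgeR adjusted p = 0.00685). Il1b fell by 1.68 and its antagonist Il1rn by 2.65 on the log2 scale, and Ccl5 by 2.52. Tnf went the other way, from 16.4 and 18.8 CPM in F and M at 1 week and 53.0, 37.7 and 52.1 CPM in F1, F2 and M1 at 15 weeks, and rose by 1.44 ± 0.23 on the log2 scale (edgeR adjusted p = 0.00661). Cxcl1, a neutrophil chemokine that lacks introns outside annotated transcripts, stood at 0.993 and 1.84 CPM in F and M at 1 week and 20.5, 11.3 and 22.7 CPM in F1, F2 and M1 at 15 weeks and rose by 3.61 ± 0.49 on the log2 scale (edgeR adjusted p = 0.00407). In all cells the groups did not overlap for Ptgs2, Il6, Tnf or Cxcl1. Ptgs2 was called in neither C1q class, and in C1q-positive cells its samples overlapped (edgeR adjusted p = 0.217). There it stood at 48.1 and 12.1 CPM at 1 week and 2.56, 11.1 and 16.0 CPM at 15 weeks. Cxcl1 was not called without the 6% of cells with the most UMIs (edgeR adjusted p = 0.101). The monocyte chemokine Ccl2 had a log2 difference of -0.49 that did not pass the test. Thbs1, thrombospondin-1, a matrix glycoprotein, stood at 143 and 126 CPM in F and M at 1 week and 4.14, 5.83 and 4.61 CPM in F1, F2 and M1 at 15 weeks and fell by 4.82 ± 0.20 on the log2 scale (edgeR adjusted p = 0.000394). Left without 1-week M, the edgeR test gave an adjusted p over 0.05 for Il1b (0.135) and Ccl5 (0.0572), without 1-week F for Ccl5 (0.068), without 15-week F1 for Il1b (0.053), and without 15-week F2 for Il1b (0.0719).

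Alox15, the lipoxygenase that makes specialised lipid mediators in alternatively activated macrophages, had 183 counts at 1 week and 0 at 15 weeks, at least 259-fold lower when 3 counts over the 15-week group are taken as the limit. Its 1-week levels were 28.3 and 38.7 CPM. Il4ra, the receptor for interleukin 4, stood at 73.5 and 128 CPM in F and M at 1 week and 34.9, 41.6 and 42.3 CPM in F1, F2 and M1 at 15 weeks and fell by 1.35 ± 0.25 on the log2 scale (edgeR adjusted p = 0.0116). Over that list 4 of 13 were lower and 1, Mrc1, was higher (median -1.15). Without 1-week M the edgeR adjusted p was over 0.05 for Il4ra (0.0624).

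Immediate early and stress genes had 8 of 22 lower and none higher (median -0.84). Hspa8, a constitutive chaperone, stood at 1841 and 3024 CPM in F and M at 1 week and 1068, 664 and 840.3 CPM in F1, F2 and M1 at 15 weeks and fell by 1.504 ± 0.28 on the log2 scale (edgeR adjusted p = 0.0115). Btg2, an antiproliferative early gene, stood at 531 and 345 CPM in F and M at 1 week and 184, 125 and 167 CPM in F1, F2 and M1 at 15 weeks and fell by 1.46 ± 0.26 on the log2 scale (edgeR adjusted p = 0.0092). Btg2 was not called in C1q-positive cells (edgeR adjusted p = 0.0517) or in C1q-negative cells. The edgeR adjusted p was over 0.05 without 1-week M for Hspa8 (0.0735), and without 1-week F for Btg2 (0.0508). Fos (0.16), Egr1 (1.06) and Atf3 (0.46) had log2 differences above 0 that did not pass the test. Scaled on short-intron genes 4 of 22 were lower and 1 was higher.

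Actin and cytoskeleton genes, of which 9 were short-intron genes, had 6 of 15 lower (median -0.68). Actb, beta-actin, stood at 12366 and 11695 CPM in F and M at 1 week and 6602, 4692 and 6437 CPM in F1, F2 and M1 at 15 weeks and fell by 1.03 ± 0.17 on the log2 scale (edgeR adjusted p = 0.00842). Coro1a, the coronin of leukocytes, stood at 869 and 868 CPM in F and M at 1 week and 418, 338 and 339 CPM in F1, F2 and M1 at 15 weeks and fell by 1.25 ± 0.16 on the log2 scale (edgeR adjusted p = 0.00371). Both were also lower when scaled on short-intron genes, whereas Tmsb4x and Arpc1b were then not called. Tmsb4x, an actin-sequestering peptide, stood at 21509.9 and 22800.1 against 15351, 12232 and 13867 CPM in the same order, a log2 difference of -0.68. Glycolysis genes had 4 of 16 lower (median -0.59), of which Ldha, lactate dehydrogenase, was the one still lower under the second scaling. Cell cycle genes had 6 of 21 lower (median -1.01), with Rrm2 at -2.11 and Mcm5 at -1.59, and Mki67 at -1.40 without passing the test. By edgeR none of the 21 was lower when scaled on short-intron genes, without 1-week F or without 1-week M (5, 4 and 10 were at an unadjusted p under 0.05), and DESeq2 called 9 of 21 lower on all 5 samples. Sod1, superoxide dismutase, was the one lower gene of 13 in the ferritin and redox list (log2 difference -1.11 ± 0.15, edgeR adjusted p = 0.00441), in which Ftl1, Mt1 and the iron exporter Slc40a1 were higher. Calls were lost, by the edgeR adjusted p in parentheses, without 1-week M for Tmsb4x (0.0683), Ldha (0.0583), Rrm2 (0.128), Mcm5 (0.111), Ftl1 (0.195), Mt1 (0.147) and Slc40a1 (0.123), without 1-week F for Ldha (0.068), Rrm2 (0.153), Mcm5 (0.076), Ftl1 (0.08), Mt1 (0.105) and Slc40a1 (0.0699), without 15-week F1 for Mt1 (0.0641), without 15-week F2 for Rrm2 (0.063), Mcm5 (0.0756), Ftl1 (0.0685) and Mt1 (0.0628), and without 15-week M1 for Rrm2 (0.0598).

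Resident nerve macrophage markers were higher at 15 weeks, the summed level being 2137 and 1914 CPM at 1 week and 6118, 8139.6 and 5506 CPM at 15 weeks. Mrc1, the mannose receptor, stood at 309 and 178 CPM in F and M at 1 week and 975, 1375 and 587 CPM in F1, F2 and M1 at 15 weeks and rose by 2.01 ± 0.43 on the log2 scale (edgeR adjusted p = 0.017). It is a long-intron gene. Cd209f, a lectin with short introns, stood at 0 and 0.615 CPM in F and M at 1 week and 19.6, 21.8 and 26.0 CPM in F1, F2 and M1 at 15 weeks (edgeR adjusted p = 0.00133). Gas6, a bridge between dying cells and their receptors, stood at 36.7 and 28.3 CPM in F and M at 1 week and 200.3, 246 and 173 CPM in F1, F2 and M1 at 15 weeks and rose by 2.67 ± 0.24 on the log2 scale (edgeR adjusted p = 0.00124). Hpgd, which breaks down prostaglandins, stood at 57.6 and 56.3 CPM in F and M at 1 week and 258, 451 and 265 CPM in F1, F2 and M1 at 15 weeks and rose by 2.51 ± 0.31 on the log2 scale (edgeR adjusted p = 0.00317). Cd163, the haemoglobin scavenger receptor, stood at 23.3 and 27.7 against 99.2, 157 and 36.6 CPM and Lyve1, a hyaluronan receptor, at 2.48 and 5.53 against 45.1, 14.8 and 10.3 CPM. The groups did not overlap in either, but the spread among 15-week samples was wide and neither passed the test (log2 difference 1.91 ± 0.61, edgeR adjusted p = 0.0547; Lyve1 2.46 ± 0.81, 0.0607). Within C1q-positive cells Mrc1 was found in 42.1% and 28.1% at 1 week and 81.4%, 85.4% and 46.9% at 15 weeks, lowest at 15 weeks in M1, and the list had 6 of 18 higher (median 1.10). Left without 1-week M, the edgeR test gave an adjusted p over 0.05 for Mrc1 (0.103). The list had 4 of 18 higher without 1-week M and 16 of 18 without 15-week M1. In the shams at 1 week the list summed to 4814 and 8229.6 CPM on plain totals, the male below and the female within the range of 5471 to 8968 CPM at 15 weeks after crush.

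C1qa, a chain of complement C1q and itself a short-intron gene, stood at 972 and 1766 CPM in F and M at 1 week and 2388, 3133 and 3909 CPM in F1, F2 and M1 at 15 weeks and rose by 1.20 ± 0.32 on the log2 scale (edgeR adjusted p = 0.0342). C5ar1, the anaphylatoxin receptor, rose by 1.46 on the log2 scale. Mertk and Adgre1, of mature macrophages, rose by 2.26 and 1.90, and have long introns. Of the microglia-like markers Gpr34 and P2ry12 were higher (1.75 and 2.00) and Tmem119 lower (-1.92). Spp1, osteopontin, which macrophages make after injury, stood at 1233 and 469.8 CPM in F and M at 1 week and 127, 130.2 and 362 CPM in F1, F2 and M1 at 15 weeks and fell by 2.04 ± 0.59 on the log2 scale (edgeR adjusted p = 0.0418). It was not called when scaled on short-intron genes (edgeR adjusted p = 0.0625). Lgals3, galectin-3, stood at 1338 and 904 against 1596, 649 and 3063 CPM in the same order, with M1 highest and the groups overlapping (log2 difference 0.66 ± 0.60, edgeR adjusted p = 0.422). Fabp5, a fatty acid carrier, and Itgax, CD11c, overlapped as well (0.56 and -0.64, neither called). Without 1-week M the edgeR adjusted p was over 0.05 for C5ar1 (0.0554), P2ry12 (0.0509), Tmem119 (0.105) and Spp1 (0.0599), without 1-week F for C1qa (0.141), P2ry12 (0.0504) and Spp1 (0.24), without 15-week F1 for Spp1 (0.0927), and without 15-week F2 for C1qa (0.0878) and Spp1 (0.125).

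Because the share of C1q-positive cells differed between times, the test was repeated on these cells alone. Of 10029 genes 835 (8.33%) were lower and 1525 (15.2%) higher, and among short-intron genes 162 and 48. Of the 1452 genes lower in all cells 668 (46.0%) were also lower there, which is 80% of the 835. Plac8 in C1q-positive cells stood at 30.8 and 60.3 CPM at 1 week and at most 0.488 CPM at 15 weeks. Of the 15 largest falls 10 could be tested there and all 10 were lower, among them Thbs1 (-4.72 ± 0.25, edgeR adjusted p = 0.000483). Of 12 short-intron falls 9 of the 10 testable were lower, the exception being S100a8 (edgeR adjusted p = 0.85). The 15 and the 12 genes were chosen on sums that hold these same cells, so the shared direction is no separate result. Spp1 fell by 3.05 ± 0.55 in these cells (edgeR adjusted p = 0.0118). C1qa, which helped to choose the cells, had a log2 difference of 0.19 there.

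Both injuries shared the batch and software version at each time, so the change after crush was compared with the change after PSNL in 1 fit of 11 samples, in which crush and PSNL share no sample. Of 11575 genes 455 (3.93%) had a lower and 554 (4.79%) a higher change after crush than after PSNL. Without 1-week crush M these counts were 108 and 142, without 1-week PSNL M 85 and 144, and without 1-week PSNL F 260 and 304. At 1 week the cells of the injuries also differed in kind. C1q-positive cells were 24.6% and 27.8% of cells after PSNL against 38.1% and 38.2% after crush, and on plain library totals neutrophil genes summed to 13881 and 4731 CPM after PSNL against 1005 and 1960 CPM after crush in F and M. At 15 weeks neutrophil genes summed to 124 to 189 CPM after PSNL and 125 to 410.4 CPM after crush. The part of these cells in the differences was not tested. MHC class II genes lay on the lower side, with 9 of 10 called lower and all 10 below 0 (median difference -1.499 on the log2 scale), and 6 of 10 lower without 1-week crush M. In C1q-positive cells alone, an alternative chosen after seeing the data, 9 of 10 were lower. On plain library totals the 10 class II genes summed to 9884 and 12126.5 CPM at 1 week and 25142 to 34907 CPM at 15 weeks after PSNL. After crush they summed to 28992 and 34016 CPM at 1 week and 26005 to 31346 CPM at 15 weeks. The sum thus rose after PSNL, while after crush the ranges at the 2 times overlapped. H2-Oa after PSNL stood at 14.4 and 22.3 CPM at 1 week and 3.01, 20.6, 11.7 and 10.7 CPM at 15 weeks, and the change after crush minus that after PSNL, the sense of all differences here, was -4.09 ± 0.65 (edgeR adjusted p = 0.00627). Ciita after PSNL stood at 78.2 and 89.8 CPM at 1 week and 156, 187, 155 and 108 CPM at 15 weeks, and its change differed by -2.04 ± 0.27 (edgeR adjusted p = 0.0029). The 1-week levels of both were higher after crush than after PSNL, while the ranges at 15 weeks overlapped. Flt3, of dendritic cells, differed likewise by -2.21 ± 0.38 (edgeR adjusted p = 0.00803), with edgeR adjusted p = 0.0577 without 1-week PSNL M. H2-Oa and Ciita kept their calls without each of the 11 samples in turn.

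Of 10 microglia-like markers 6 had a lower change after crush (median -1.72), with 2 without 1-week crush M and 1 without 1-week PSNL M. Gpr34, for example, had a difference of -2.51 ± 0.35 (edgeR adjusted p = 0.00363). Of 16 lipid-associated and injury genes 6 had a higher change after crush (median 1.69), with 1 without 1-week crush M or 1-week PSNL M, and 3 without 15-week crush M1 or 15-week PSNL F1. Cd9, a tetraspanin, differed by 2.50 ± 0.52 (edgeR adjusted p = 0.0171), with edgeR adjusted p = 0.0893 and 0.0914 without 1-week crush M and 1-week PSNL M, while Apoe, a lipid carrier, differed by -0.96 ± 0.55 (edgeR adjusted p = 0.298) and was not called.

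Glycolysis genes lay on the higher side, with 13 of 16 called higher (median 1.93). Ldha after PSNL stood at 516 and 716 CPM at 1 week and 82.5, 96.2, 77.3 and 106 CPM at 15 weeks, so the fall from 1 week was larger there, and the changes differed by 1.49 ± 0.32 (edgeR adjusted p = 0.0187). Without 1-week crush M or 1-week PSNL M 6 of 16 were called in either case, and Ldha had edgeR adjusted p = 0.0897 and 0.1. Of 23 cytokine and chemokine genes 7 were called higher, with Tnf at 2.57 ± 0.32 (edgeR adjusted p = 0.00219) and Cxcl1 at 10.84 ± 1.02 (edgeR adjusted p = 0.000919), which stood at 155 and 215 CPM at 1 week and 0.753, 0, 3.46 and 0 CPM at 15 weeks after PSNL. Tnf and Cxcl1 kept their calls without each sample in turn, while the list held 3 calls without 1-week crush M, 1-week PSNL F or 1-week PSNL M and 4 without 1-week crush F. Spp1 after PSNL stood at 7436 and 9019.5 CPM at 1 week and 128, 45.0, 148 and 317 CPM at 15 weeks, and its change differed by 3.65 ± 0.98 (edgeR adjusted p = 0.0428). That call was lost without 1-week crush F (0.0567), 1-week crush M (0.181), 15-week crush M1 (0.0619), 1-week PSNL F (0.0822), 1-week PSNL M (0.14), 15-week PSNL F1 (0.0798) or 15-week PSNL M1 (0.0822), all edgeR adjusted p. Among interferon-stimulated genes 0 of 16 differed (14 below 0, median -1.17, 1 at an unadjusted p under 0.05) by edgeR, with the unequal 1-week samples described above. Without 1-week crush M the median was 1.69 (0 of 16 called, 4 higher at an unadjusted p under 0.05), and without 1-week crush F 3 of 16 were called lower, so the side of this list turned with 1 sample. Monocyte markers had 0 of 9 called (3 at an unadjusted p under 0.05), with Ly6c2 at 0.17 ± 1.28 (edgeR adjusted p = 0.971) and Plac8 at -0.98 ± 1.13 (edgeR adjusted p = 0.636).

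Among genes averaging at least 50 CPM in the higher group, those with the smallest adjusted p below PSNL were Wdfy4, Rpl10, Rpl35, Rps6ka1 and Pdcd4. Wdfy4, which dendritic cells need for cross-presentation, stood at 143 and 154 CPM in F and M at 1 week and 131, 141 and 109 CPM in F1, F2 and M1 at 15 weeks after crush, where it was not called, and at 43.7 and 41.0 CPM at 1 week and 155, 147, 145 and 134 CPM at 15 weeks after PSNL, a difference of -2.02 ± 0.19 (edgeR adjusted p = 0.000919). Those above PSNL were Ier3, Cd14, Sdc4, Clec4d and C5ar1. Ier3, an early gene of inflammatory signalling, stood at 82.9 and 69.5 CPM in F and M at 1 week and 42.9, 40.0 and 44.6 CPM in F1, F2 and M1 at 15 weeks after crush and at 854 and 1399 CPM at 1 week and 41.8, 38.9, 46.8 and 39.7 CPM at 15 weeks after PSNL, a difference of 3.91 ± 0.28 (edgeR adjusted p = 0.00023). Cd14, a co-receptor for bacterial lipopolysaccharide, stood at 112 and 97.8 CPM in F and M at 1 week and 124, 196 and 179 CPM in F1, F2 and M1 at 15 weeks after crush and at 1111 and 1119 CPM at 1 week and 171, 188, 167 and 138 CPM at 15 weeks after PSNL, a difference of 3.41 ± 0.28 (edgeR adjusted p = 0.000468). In both genes the PSNL samples at 1 week lay far above all others, and the 15-week ranges of the injuries overlapped. The calls of Wdfy4, Ier3 and Cd14 were kept without each of the 11 samples in turn.

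**Figure D5:**
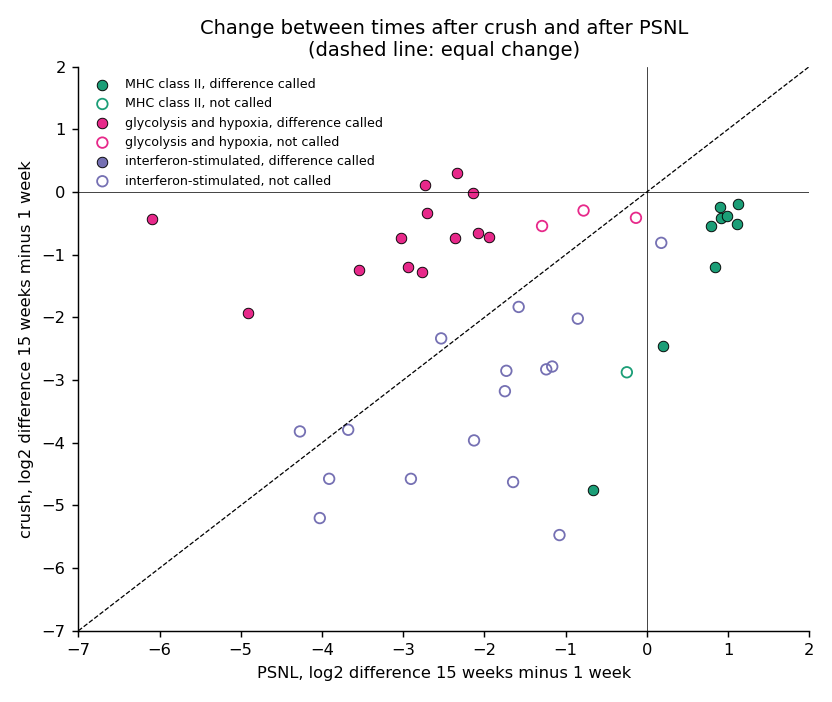
Log2 difference between 15 weeks and 1 week after crush (vertical axis) against that after PSNL (horizontal axis), with 1 point per tested gene of 3 lists and filled points where the difference between injuries was called. MHC class II genes (green) lie below the dashed line of equal change and all but 1 of the glycolysis genes (pink) above it. None of the 16 interferon-stimulated genes (violet) was called.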

How the data were processed

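The deposited files hold UMI counts per gene and cell from 10x libraries, made by the authors with Cell Ranger (6.0.0 in the headers at 1 week and 7.0.0 at 15 weeks) on GRCm38. The submitters' processing notes name Cell Ranger 6.0.0 and Seurat 5.1.0. Whether reads in introns were counted is not given in the sources used here. Whole-number counts of the 30406 genes shared by both gene lists were summed per hashtag sample, with cells filtered as in the report. Cells with more than 1 positive hashtag were removed as doublets, and no other doublet caller was run. PSNL and sham hashtags were read at the valley between low and high counts. Columns of unmatched samples numbered 0.

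Sums were tested with edgeR 4.0.16 (R 4.3.3) by glmQLFit and glmQLFTest after TMM scaling and filterByExpr, with 3 residual degrees of freedom for the 5 samples and 7 for the 11 samples of the comparison with PSNL. Calls are at an adjusted p under 0.05 over all genes tested. Differences are given ± SE. Sham samples entered no test other than a fit of all 13 samples as an alternative. The script was tested on simulated data. Samples at the same time differed far beyond counting error (chi-square per degree of freedom between 9.55 and 45.2 for the 4 pairs), so none was a copy of another. Intron lengths came from GENCODE M21, promoters from RefSeq, and exons were compared by strand. Levels of different genes are not scaled by length and are not compared.

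The members and gene lists were chosen with earlier results of these data known. Genes were named where the call passed, groups did not overlap and the higher group averaged at least 50 CPM, with clone names left out: the 15 largest falls, the 12 largest falls and 8 largest rises among short-intron genes, up to 4 members per list, 5 per direction against PSNL, genes the study names, and checks. Some tested members of the lists enter the counts and sums and are not reported here by name. Other members of the lists were picked for the text after their values were seen. Alternatives covered hashtag calls (Seurat 5.3.0 HTODemux at 0.99 among them), cell filters (1000 genes and 5%, 200 genes and 20%), C1q classes, RLE, short-intron scaling, DESeq2 1.42.0, glmTreat, no low count filter, thinning, sex as a term and leaving out each sample. The C1q-negative class, C1q-positive cells in the comparison with PSNL, and the set without genes that share exonic bases were added after seeing the data. Samples are few and of unequal depth, and the precision given covers the spread between hashtag samples only.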

Additional observations from a re-analysis of the deposited data

Results flagged for a closer look

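The change between 1 and 15 weeks differed between crush and PSNL, by edgeR's test of the difference itself on 11 samples, in 455 genes that were lower and 554 that were higher after crush relative to PSNL. On the log2 scale, crush minus PSNL, the antigen presentation genes H2-Oa, H2-Ob and Ciita had differences of -4.09, -2.66 and -2.04, and Wdfy4 had -2.02. Pdcd4, a translation inhibitor, had -2.60, the kinase gene Rps6ka1 -1.44, and the ribosomal protein genes Rpl10 and Rpl35, whose reads can be shared with processed copies, -1.80 and -1.66. On the higher side Clec4d, a lectin of myeloid cells, had 4.36, Ier3 3.91, Spp1 3.65, Cd14 3.41, Lgals3 2.92, the proteoglycan gene Sdc4 2.52 and C5ar1 2.23. Lgals3, which was not called in crush alone, changed by -2.26 after PSNL and 0.66 after crush in this fit.

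A hashtag that the labels assign to no sample of the 15-week crush library (Ms.Hashtag_4) had 110 UMIs there in all, against totals of 99996, 100279 and 276334 UMIs for the 3 assigned hashtags. It was used in no comparison.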

How the results depend on the processing

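Counts of lower, higher, short-intron lower and short-intron higher genes were 1452, 2208, 327 and 83. They stayed within 1.5 times of these under the other hashtag calls, cell filters, RLE, DESeq2, no low count filter, thinned sums, sex as a term, 1 fit of 13 samples and the removal of genes sharing exonic bases, and moved further in these cases, whose cause was not tested unless the setting itself tests fewer genes or a larger fold. C1q-positive cells gave 835 lower, 162 and 48. C1q-negative cells, added after seeing the data, gave 382, 1037, 89 and 39, with 9095 genes tested. Short-intron scaling gave 482 lower, 105 and 140, and testing against a fold of 1.5 gave 394, 1347, 86 and 52. Short-intron limits of 1000 and 10000 bases gave 160 and 38, and 763 and 212, by construction. Leaving out 1 sample gave 235 to 1231 lower, 887 to 2203 higher, 55 to 292 and 37 to 84, lowest without 1-week M. The comparison with PSNL, with 455 lower and 554 higher, gave without 1 sample 85 to 574 lower and 142 to 802 higher, and 252 and 254 in C1q-positive cells; without 1-week crush F 328 were higher, and without PSNL 15-week F1, F2 or M1 it gave 287 and 319, 275 and 330, or 261 and 294. The lone sample left at 1 week is assumed to vary like those at 15 weeks. Of 116 called named results 57 kept the call without each sample in turn. Of 2887 values under alternatives 2563 counted as unchanged, 279 lost and 34 gained the call, and 11 counted as turned in direction. A turn was counted where either fit called the gene. A turn where neither did so is among the unchanged, as is a call for which the alternative gave no adjusted p. The 11 were S100a8 at 0.39 under the stricter cell filter and Ier2 and Ier3 at 0.36 and 0.27 in C1q-positive cells. In C1q-negative cells they were Gpr34 (-0.47), Nkg7 (0.68), Ier3 (0.072), C5ar1 (-0.48), Hmgb2 (0.38), Cks1b (0.073), Clec4d (-0.15) and Malat1 (-0.55), as log2 differences. The fall in the share of all cells with a UMI of H2-Oa was 18.2 points at 2000 UMIs, 10.8 at 1000 and 25.3 without thinning. No paired analysis was possible because the samples at 1 week (F, M) and at 15 weeks (F1, F2, M1) carry no common replicate number. With 2 samples at 1 week, genes of few counts carry wide errors.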
